A study of Homo sapiens with 6 samples.

Results

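The 53 genes described here encode factors that copy DNA in S phase. They were taken from a list of names chosen with earlier results of these data known. Shares of all genes set beside their counts are therefore a description and not a test. Each gene is represented by the probe set with the highest mean over 6 arrays among the probe sets annotated with that gene alone. All 53 were measured, among 19775 genes with such a probe set, and together they held 99 of the 54675 probe sets. Expression had been measured on Affymetrix 3' expression arrays in CaSki, an established human line from a cervical squamous cell carcinoma that carries papillomavirus DNA. Of the 6 arrays, 3 came from cells given recombinant TGF-β1 at 2 ng/mL and 3 from cells kept in medium without it. All cells were grown in RPMI1640 with fetal bovine serum, and no source used here gives the length of treatment. The labels do not say that the arrays of a group came from separate cultures, so the p-values reflect spread among these samples alone, and that spread may be technical.

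Replication is prepared in G1, when the origin recognition complex (ORC), CDC6 and CDT1 load the MCM helicase ring onto DNA. At the start of S phase the kinase CDC7 with DBF4 and the proteins CDC45, GINS and MCM10 turn the ring into a working helicase, and polymerases, the PCNA clamp and its loader RFC then build the new strands. Many of these genes are transcribed under E2F factors, which the retinoblastoma family holds back until late G1. In epithelial cells TGF-β is known as a growth inhibitor that acts in G1 through CDK inhibitors and lower MYC, and papillomavirus E7 protein is known to disable the retinoblastoma family.

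DNA replication genes were lower in TGF-β1-treated cells by small amounts. Of the 53 genes, 11 fell and 0 rose (limma, Benjamini-Hochberg adjusted p below 0.05 over 19775 genes), against 4.47% of all genes tested that fell, 4.03% that rose and 8.5% that changed in either direction. At an unadjusted p below 0.05, 31 were lower and 0 higher, against 4584 of all 19775 genes in either direction. The difference, treated minus untreated, was below 0 in 50 of the 53, against 50.6% of all genes. The median difference was -0.21 (log2) over the replication genes and -0.00 over all genes, and the middle of the distribution lay between -0.30 and -0.13 (quartiles). In 36 genes all 3 treated values lay below all 3 untreated values, against 16.3% of all genes, and 0 had them all above, against 12.9%. The largest fall was 1.52-fold, in MCM10, and the smallest that passed was 1.23-fold. The arrays carry RNA of whole cultures, so fewer cells in S phase and less of these transcripts per cell cannot be told apart.

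All 53 genes lay at or above 6.06 (log2), and brighter genes passed more often in both directions on these arrays. Among the 8143 genes at or above that level 8.38% fell and 7.17% rose, and 57.6% had a difference below 0. An unadjusted p below 0.05 (limma) was reached by 2880 of the 8143 in either direction. Treated values lay all below the untreated in 28.8% of them and all above in 18.1%. Falls of at least 1.2-fold were seen in 19 of the 53 replication genes, or 35.8%, against 13.0% of those 8143 genes and 8.61% of all genes.

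**Figure D1:**
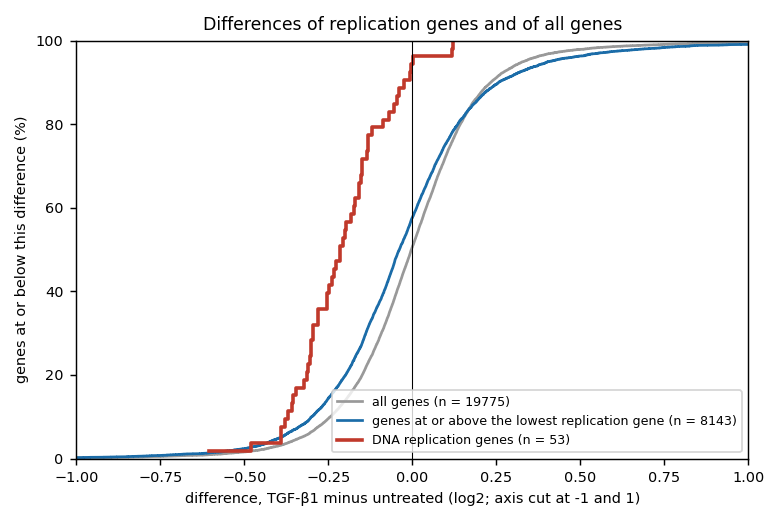
Cumulative share of genes (vertical, %) at or below each difference between TGF-β1-treated and untreated cells (horizontal, log2), for 53 DNA replication genes, for all 19775 genes and for the 8143 genes at or above the level of the lowest replication gene. The replication genes lie to the left of both other curves over most of their range, with 50 of 53 below 0, and they do not reach the large differences at either end.

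The shift appeared on each treated array. Relative to the untreated mean of each gene, the median over the 53 genes was -0.24 on treated array 1, -0.21 on treated array 2 and -0.19 on treated array 3 (log2). The same median was -0.03, 0.00 and 0.03 on untreated arrays 1, 2 and 3. On each of the 3 treated arrays, 49 of the 53 genes lay below their untreated mean. On untreated arrays 1, 2 and 3 the count was 35, 25 and 16. The same count was not made over all genes. Averaged over all genes, treated arrays 1, 2 and 3 differed from the untreated mean by -0.0073, 0.0017 and 0.010 (log2). Treated array 1 was the lowest in several genes with a wide spread, among them MCM2, ORC1 and RPA1. RNA quality was read from GAPDH and ACTB control probes as their 3' signal over their 5' signal. It was 1.19 and 1.15 (log2) on the arrays numbered 1, against 0.690 to 0.863 on the other 4. With that signal as a covariate 17 of the 53 genes fell, against 5.65% of all genes, and the median difference was -0.22. Without both arrays numbered 1 the median was also -0.22, and 1 of the 53 genes, MCM10, fell, against 1.37% of all genes, a share of like size.

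**Figure D2:**
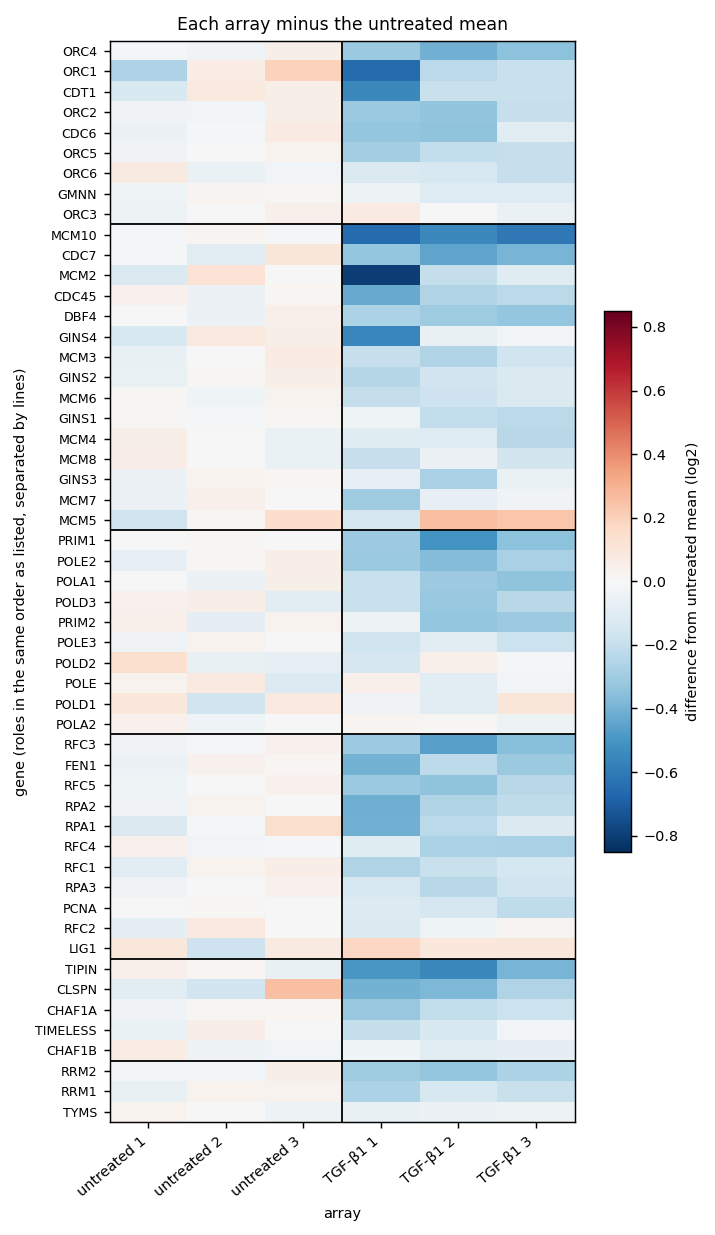
Difference of each array from the untreated mean of that gene (colour, log2), for the 53 DNA replication genes in rows and the 6 arrays in columns. The rows follow the roles licensing, helicase, polymerases, clamp, chromatin assembly with fork protection, and nucleotide supply, and the 3 treated columns are blue in most rows, with MCM5, LIG1 and ORC3 as the genes whose mean difference lay above 0.

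Fewer genes passed when single arrays were left out. Leaving out untreated array 1, 2 or 3 left 2, 3 and 2 falls, leaving out treated array 1, 2 or 3 left 7, 2 and 2, and 0 genes rose in these 6 fits. The share of all genes that fell was also lower in these fits, at 1.603% to 3.191%, against 4.47% with all 6 arrays. The share of all genes that changed in either direction was 3.87% to 6.67%. The median difference over the 53 genes ran from -0.23 to -0.18, and 48 or 49 genes stayed below 0. MCM10 and TIPIN were the genes that fell in all 6 of these fits.

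The promoters of 6 of these genes are shown because E2F sites are the known common feature of replication genes. Each line gives 100 bases in the direction of transcription, from RefSeq windows of 250 bases before to 50 after the annotated start (GRCh38.p14). Capitals mark letters that match 1 of the 4 forms searched for E2F, TTTCCCGC, TTTCGCGC, TTTGCCGC or TTTGGCGC, on either strand. MCM10, RFC3 and POLE2 fell, and CDC6, MCM2 and MCM6 did not pass. The 6 are not typical of the list. Of the 11 genes that fell, RFC3 and POLE2 were the 2 with a match, and 20 of the 47 windows searched held one.
MCM10, chr10:13161508-13161607, plus strand: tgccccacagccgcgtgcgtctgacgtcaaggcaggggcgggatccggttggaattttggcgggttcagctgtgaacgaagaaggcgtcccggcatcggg
RFC3, chr13:33818048-33818147, plus strand: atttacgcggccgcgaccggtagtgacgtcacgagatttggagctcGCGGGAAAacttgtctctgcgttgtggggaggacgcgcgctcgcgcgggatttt
POLE2, chr14:49688166-49688265, minus strand: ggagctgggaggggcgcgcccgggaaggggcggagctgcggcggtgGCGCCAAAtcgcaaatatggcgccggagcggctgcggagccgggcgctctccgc
CDC6, chr17:40287829-40287928, plus strand: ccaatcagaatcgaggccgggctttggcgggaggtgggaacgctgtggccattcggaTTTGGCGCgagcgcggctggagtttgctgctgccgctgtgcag
MCM2, chr3:127598361-127598460, plus strand: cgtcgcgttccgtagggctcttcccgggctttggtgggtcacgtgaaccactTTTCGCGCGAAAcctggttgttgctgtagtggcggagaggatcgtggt
MCM6, chr2:135876509-135876608, minus strand: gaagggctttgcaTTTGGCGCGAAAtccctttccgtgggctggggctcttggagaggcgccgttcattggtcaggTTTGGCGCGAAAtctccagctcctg

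The match began 7 bases after the annotated start in CDC6, 55 bases before it in RFC3 and 5 before it in POLE2. In MCM2 a stretch matched on both strands, so 2 overlapping matches lie in 1 stretch, and MCM6 held 4 matches in 2 such stretches. The MCM10 window held 0 of the searched letters, and its last 100 bases are shown. These bases hold tttggcgg, as do those of CDC6, which differs from the searched TTTGGCGC in its last letter. Forms with another last letter were not searched. A RefSeq window was found for 47 of the 53 genes, and 11 of these had more than 1, of which the first listed was used. Those not matched were MCM4, MCM5, GINS4, POLD3, RPA2 and RPA3. The E2F letters occurred in 20 of the 47 windows, or 42.6%, against 4.36% of the 15384 windows of genes tested on the arrays. They stood in 8 of 12 helicase windows, 4 of 9 polymerase windows, 3 of 9 clamp windows and 3 of 9 licensing windows. The letters CCAAT, searched on both strands, occurred in 57.4% of the 47 windows and in 36.1% of the windows of tested genes. The letters TTTGAA, part of a cell cycle promoter element, occurred in 4.26% and 11.9%. Of the 20 genes with E2F letters 2 fell, with a median difference of -0.16 over the 20. Of the 27 without them 9 fell, with a median of -0.24. This difference was not tested, and the split rests on the 4 searched forms alone. A match is a description of letters in this window and not a binding site.

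Of the 9 origin licensing genes 1 fell, 0 rose and 8 did not pass, with a median difference of -0.25 (log2). For this and each role below, 4.47% of all genes fell and 4.03% rose. Among the 8143 genes at or above the lowest replication gene, here called bright, the shares were 8.38% and 7.17%. Groups as small as these roles were not tested against those shares. ORC4, a subunit of the origin recognition complex, read 8.48, 8.47 and 8.55 on the untreated arrays and 8.19, 8.09 and 8.15 on the treated arrays (log2). The groups did not overlap, and ORC4 was 1.28-fold lower with treatment (adjusted p = 0.0185). In 5 of the 6 fits that left an array out ORC4 no longer passed (adjusted p up to 0.0771), all but the one without treated array 1, with the difference between -0.38 and -0.33. The second ORC4 probe set differed by -0.10.

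ORC2, another subunit, read 6.99, 6.99 and 7.07 on the untreated arrays and 6.70, 6.68 and 6.82 on the treated arrays, without overlap, and lay just outside the threshold (difference -0.28, adjusted p = 0.0529). The second ORC2 probe set gave a like difference of -0.28. ORC5 read 8.17, 8.21 and 8.24 on the untreated arrays and 7.91, 7.998 and 8.01 on the treated arrays, also apart, with a difference of -0.23 (95% interval -0.39 to -0.08, adjusted p = 0.0801). ORC1, the subunit whose level is known to vary with the cell cycle, differed by -0.36 with an interval of -0.71 to 0.00. Its treated values were 5.74, 6.16 and 6.21, and its untreated values 6.13, 6.46 and 6.59, so array 1 was the lowest of both groups, and the groups overlapped. The difference was -0.21 without treated array 1, -0.49 without untreated array 1 and -0.34 without both. With the 3' over 5' signal as a covariate ORC1 differed by -0.44 and passed (limma adjusted p = 0.0110). ORC6 and ORC3 differed by -0.15 and 0.00.

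CDC6, which brings the helicase to ORC, read 8.06, 8.09 and 8.18 on the untreated arrays and 7.78, 7.77 and 8.02 on the treated arrays. The treated values lay below the untreated ones, with a difference of -0.25 ± 0.09 (SE, adjusted p = 0.136), and the second CDC6 probe set differed by -0.41. CDT1, its partner in loading, differed by -0.31 without overlap (adjusted p = 0.153), and the second CDT1 probe set by -0.11 with overlap. GMNN, which encodes geminin, the inhibitor of CDT1, differed by -0.09 (95% interval -0.24 to 0.07). Neither the loaders nor their inhibitor passed.

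Of the 15 genes of the helicase, its activators and its kinase 3 fell, 0 rose and 12 did not pass. Of all genes 4.47% fell, and of the bright ones 8.38%. The median difference over the 15 was -0.17. MCM10, a scaffold that helps to start the helicase, had the largest fall of the 53 genes. It read 7.59, 7.62 and 7.59 on the untreated arrays and 6.95, 7.05 and 6.99 on the treated arrays, so the groups lay far apart against a spread of 0.02 (SD, n = 3) in untreated and 0.05 (SD, n = 3) in treated samples. MCM10 was 1.52-fold lower (difference -0.60 ± 0.07, SE, limma adjusted p = 0.00151), and it passed in all 6 fits without a single array and in all 13 other alternatives. Its other probe sets differed by -0.38 and -0.59, and both passed when all probe sets were fitted (adjusted p = 0.0394 and 0.0123).

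The kinase that fires origins was lower in both of its subunits. CDC7, the catalytic subunit, read 7.88, 7.79 and 7.996 on the untreated arrays and 7.56, 7.44 and 7.50 on the treated arrays and was 1.31-fold lower (adjusted p = 0.0233). DBF4, which activates CDC7, read 9.09, 9.04 and 9.13 on the untreated arrays and 8.81, 8.78 and 8.76 on the treated arrays and was 1.23-fold lower (adjusted p = 0.0333). Treated and untreated values were separate for both. CDC7 passed without untreated array 2 and without treated array 1, and failed in the other 4 such fits (adjusted p up to 0.0870). The DBF4 call was lost whichever of the 6 arrays was left out (adjusted p 0.0514 to 0.118).

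CDC45, which joins the ring and GINS in the active helicase, read 8.03, 7.95 and 8.01 on the untreated arrays and 7.57, 7.74 and 7.77 on the treated arrays. Its treated values lay below all untreated ones, and it was just outside the threshold (-0.30, adjusted p = 0.0550). The GINS subunits differed by -0.16 (GINS1), -0.17 (GINS2), -0.13 (GINS3) and -0.21 (GINS4), and none of the 4 passed.

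None of the 6 subunits of the helicase ring passed. MCM3 read 9.25, 9.31 and 9.39 on the untreated arrays and 9.12, 9.06 and 9.15 on the treated arrays, with a difference of -0.20 (adjusted p = 0.132). MCM6 read 10.46, 10.41 and 10.47 on the untreated arrays and 10.24, 10.27 and 10.32 on the treated arrays, with a difference of -0.17 (adjusted p = 0.181). In both a narrow gap separated the groups, and the second MCM6 probe set differed by -0.11 with overlap. MCM2 had the largest difference of the ring, -0.37, with an interval from -0.77 to 0.03 and treated values of 8.18, 8.77 and 8.87, and the groups overlapped. The MCM2 difference was -0.15 without treated array 1 and -0.21 without both arrays numbered 1. MCM4 and MCM7 differed by -0.15 and -0.13, and their other probe sets by -0.02 to 0.11 (MCM4) and -0.00 (MCM7). MCM5 differed by 0.12 in the other direction (95% interval -0.18 to 0.41), with treated values of 8.22, 8.62 and 8.60 against 8.20, 8.38 and 8.52 in untreated samples, so the groups overlapped. Its second probe set differed by 0.22, also without passing. MCM8, a related helicase of recombination that is no part of the ring, differed by -0.13.

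**Figure D3:**
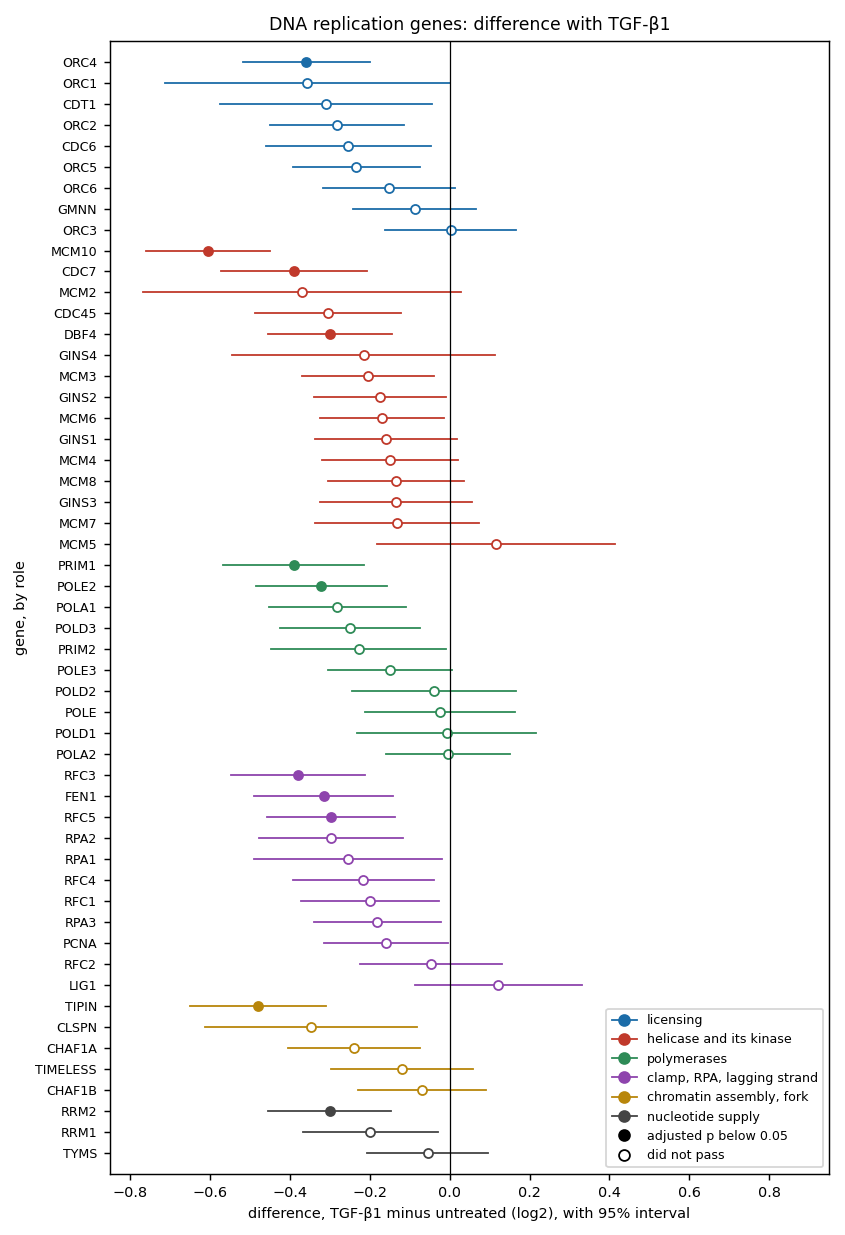
Difference between TGF-β1-treated and untreated cells (horizontal, log2, with the 95% interval of limma) for the 53 DNA replication genes, grouped by role and ordered by size within a role. Filled points passed an adjusted p of 0.05, which 11 genes did, all below 0, and 31 of the 53 intervals lie below 0 and 0 above it.

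Of the 10 polymerase genes 2 fell, against 4.47% of all and 8.38% of bright genes. Of the others 0 rose and 8 did not pass, and the median difference over the 10 was -0.19. PRIM1, the catalytic subunit of primase, which lays down the RNA primers, read 9.28, 9.29 and 9.28 on the untreated arrays and 8.97, 8.77 and 8.93 on the treated arrays. The untreated values agreed within 0.02 and the treated ones were all lower, by 1.31-fold (adjusted p = 0.0202, up to 0.0751 without single arrays, where it passed in the fit without treated array 1 and in none of the other 5). POLE2, an accessory subunit of polymerase epsilon, read 8.21, 8.30 and 8.34 on the untreated arrays and 7.97, 7.91 and 8.004 on the treated arrays and was 1.25-fold lower without overlap (adjusted p = 0.0316). The POLE2 call was lost whichever of the 6 arrays was left out (adjusted p 0.0583 to 0.114).

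POLA1, the catalytic subunit of polymerase alpha, read 7.48, 7.44 and 7.54 on the untreated arrays and 7.30, 7.18 and 7.14 on the treated arrays, and its groups did not overlap (-0.28, adjusted p = 0.0571). POLD3, an accessory subunit of polymerase delta, read 8.48, 8.50 and 8.35 on the untreated arrays and 8.26, 8.13 and 8.21 on the treated arrays, again without overlap (-0.25, adjusted p = 0.0915). PRIM2, the larger primase subunit, read 7.05, 6.93 and 7.04 on the untreated arrays and 6.97, 6.68 and 6.70 on the treated arrays, where treated array 1 overlapped the untreated values (-0.23, adjusted p = 0.201). A further 4 probe sets annotated with PRIM2 and another symbol were not used. The second POLD3 probe set differed by -0.17 with overlap.

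The catalytic subunits of polymerases epsilon and delta had differences near 0. POLE, of polymerase epsilon, differed by -0.02 (95% interval -0.21 to 0.16) and POLD1, of polymerase delta, by -0.01 (-0.23 to 0.22). POLD2 and POLA2, accessory subunits of delta and alpha, differed by -0.04 and -0.00. The groups overlapped in all 4 genes, and the lower ends of their intervals, from -0.24 to -0.16, stopped short of a 1.2-fold fall. POLE3, a histone-fold subunit of polymerase epsilon, differed by -0.15 without overlap and without passing.

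A group of 11 genes covers the clamp, its loader, the single-strand binding complex RPA and lagging-strand processing. Of these 3 fell, 0 rose and 8 did not pass, against 4.47% of all and 8.38% of bright genes that fell. The median difference over the 11 was -0.22. RFC3, a subunit of the clamp loader, read 8.47, 8.49 and 8.54 on the untreated arrays and 8.19, 8.03 and 8.13 on the treated arrays and was 1.3-fold lower (adjusted p = 0.0181). RFC5, another loader subunit, read 9.18, 9.21 and 9.25 on the untreated arrays and 8.90, 8.87 and 8.98 on the treated arrays and was 1.23-fold lower (adjusted p = 0.0381). Both had separate groups. Of the other RFC3 probe sets 1 differed by -0.43, and 1 below the array median by 0.37, without passing. For RFC5 the other probe sets disagreed, at -0.44, which passed, and 0.21, with treated values all above the untreated and no call (adjusted p = 0.211).

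FEN1, the nuclease that trims the flaps between lagging-strand fragments, read 10.54, 10.62 and 10.60 on the untreated arrays and 10.18, 10.36 and 10.27 on the treated arrays. FEN1 was 1.24-fold lower without overlap (adjusted p = 0.0416), and the second probe set differed by -0.29. The calls of RFC5 and FEN1 were lost whichever of the 6 arrays was left out (adjusted p 0.0623 to 0.136) and that of RFC3 in all but the fit without treated array 1 (up to 0.0751). LIG1, the ligase that seals those fragments, was the gene with the highest difference of the 53, at 0.12 (95% interval -0.09 to 0.33). Its groups overlapped and it did not pass.

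RPA2, the middle subunit of RPA, read 9.15, 9.21 and 9.18 on the untreated arrays and 8.76, 8.92 and 8.96 on the treated arrays, apart and just outside the threshold (-0.30, adjusted p = 0.0562). RFC4 read 9.76, 9.70 and 9.71 on the untreated arrays and 9.62, 9.45 and 9.44 on the treated arrays (-0.22, adjusted p = 0.135). RFC1, the large loader subunit, read 7.04, 7.17 and 7.19 on the untreated arrays and 6.88, 6.94 and 6.98 on the treated arrays (-0.20, adjusted p = 0.158). In both the treated values of the brightest probe set lay below all untreated ones. The other RFC1 probe sets differed by -0.07 and, below the array median, by -0.06, with overlap. RPA1 and RPA3 differed by -0.25 and -0.18, and RFC2 by -0.05. PCNA, the sliding clamp, stood between 12.06 and 12.07 on untreated and between 11.84 and 11.94 on treated arrays, a difference of -0.16 without overlap that did not pass (adjusted p = 0.203).

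Of the 5 genes of chromatin assembly and fork protection 1 fell, against 4.47% of all and 8.38% of bright genes. Of the others 0 rose and 4 did not pass, and the median difference over the 5 was -0.24. TIPIN, which with TIMELESS steadies the replication fork, had the second largest fall of the 53 genes. It read 7.69, 7.66 and 7.58 on the untreated arrays and 7.15, 7.10 and 7.25 on the treated arrays, far apart, and was 1.39-fold lower (difference -0.48 ± 0.07, SE, limma adjusted p = 0.00734). TIPIN passed without each single array (adjusted p up to 0.0383) and not without both arrays numbered 1 (adjusted p = 0.0738). Its partner TIMELESS read 8.19, 8.31 and 8.25 on the untreated arrays and 8.05, 8.12 and 8.23 on the treated arrays and overlapped, with a difference of -0.12 (95% interval -0.30 to 0.06). Whether the partners differed from each other was not tested.

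CLSPN, which encodes the fork protein claspin that relays checkpoint signals, read 6.14, 6.07 and 6.48 on the untreated arrays and 5.83, 5.85 and 5.98 on the treated arrays, with a wide untreated spread and no overlap (-0.35, adjusted p = 0.114). CHAF1A, a subunit of the histone chaperone CAF-1, read 7.89, 7.93 and 7.93 on the untreated arrays and 7.59, 7.71 and 7.73 on the treated arrays (-0.24, adjusted p = 0.0845), with treated values all below the untreated. CHAF1B, the partner subunit of CHAF1A, differed by -0.07. The other CLSPN probe sets differed by -0.02 and, below the array median, by -0.11 and -0.01, all with overlap. Those of CHAF1A differed by -0.25 without overlap, and with overlap by -0.06 and, below the array median, by 0.03.

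Of the 3 genes of nucleotide supply 1 fell and 2 did not pass, against 4.47% of all and 8.38% of bright genes that fell. In the brightest probe set of all 3 the treated values lay below the untreated ones. RRM2, the S-phase subunit of ribonucleotide reductase, read 11.58, 11.58 and 11.65 on the untreated arrays and 11.30, 11.27 and 11.34 on the treated arrays and was 1.23-fold lower (adjusted p = 0.0326). Its call was lost whichever of the 6 arrays was left out (adjusted p 0.0607 to 0.116), while the second RRM2 probe set differed by -0.45 and passed when all probe sets were fitted (adjusted p = 0.0140). RRM1, the large subunit, read 10.87, 10.96 and 10.96 on the untreated arrays and 10.66, 10.80 and 10.74 on the treated arrays (-0.20, adjusted p = 0.150). The second RRM1 probe set differed by 0.08, with overlapping groups. TYMS, thymidylate synthase, read 11.43, 11.41 and 11.36 on the untreated arrays and 11.34, 11.35 and 11.36 on the treated arrays. Its groups were separated by less than the rounding of these values, with a difference of -0.05 (95% interval -0.21 to 0.10). The other TYMS probe sets differed by 0.02 and, below the array median, by -0.13, both with overlap.

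**Figure D4:**
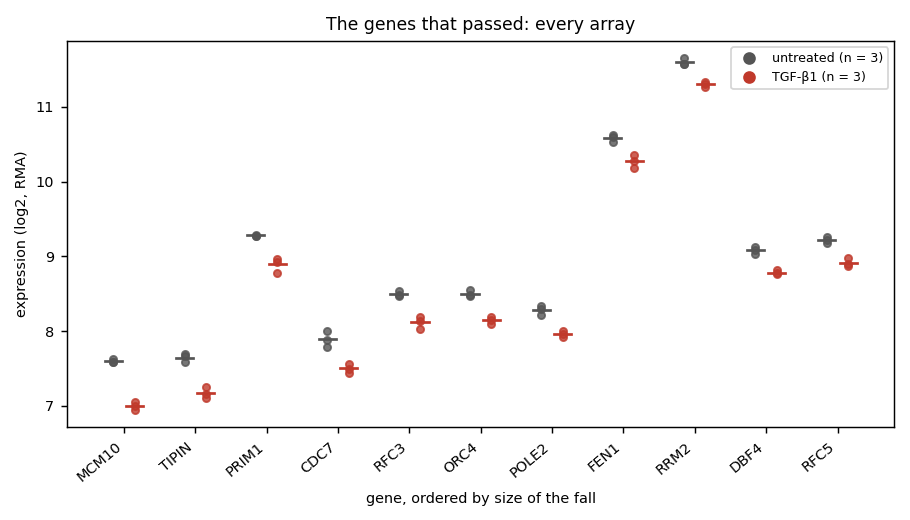
Expression (vertical, log2 RMA values) of the 11 DNA replication genes that fell, for each of 3 untreated and 3 TGF-β1-treated arrays, with bars at the group means. Treated and untreated points are separate in all 11 genes, and the means lie farthest apart in MCM10 and TIPIN.

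Repeat measurements on the same arrays came from the 46 other probe sets of 28 genes. Of these, 36 lay above the median of all array values, and 26 of the 36 had a difference below 0. When all 41091 probe sets with 1 gene name were fitted together, 4 of these 36 passed, those of MCM10 (2), RFC5 and RRM2, all below 0. Probe sets of 1 gene share the RNA and the array, and they are not replicates. In that fit the representative probe sets of 6 genes passed, MCM10, TIPIN, PRIM1, CDC7, RFC3 and ORC4, against 2.31% of all probe sets that fell.

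**Figure D5:**
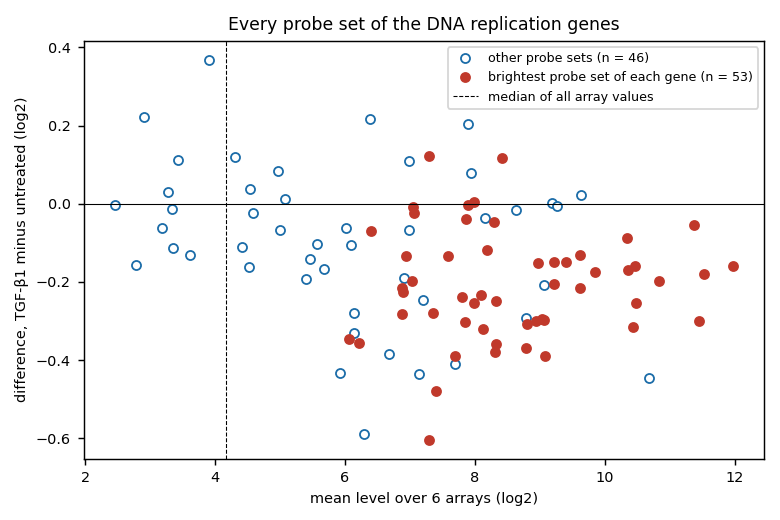
Difference between TGF-β1-treated and untreated cells (vertical, log2) against mean level over 6 arrays (horizontal, log2) for the 99 probe sets of DNA replication genes. Red points are the brightest probe set of each gene and open blue points the other 46, and the dashed line marks the median of all array values, 4.16, below which 10 of the other probe sets lie.

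Regulators of the step from G1 to S moved in both directions. Of 35 measured members of that list 8 fell, 5 rose and 22 did not pass, with a median difference of -0.11. Over all genes 4.47% fell and 4.03% rose. MYC, a driver of cell growth, read 9.94, 9.83 and 9.81 on the untreated arrays and 8.95, 8.84 and 8.86 on the treated arrays and was 1.96-fold lower (adjusted p = 0.000221). The CDK inhibitors CDKN1A and CDKN2B were 1.71-fold and 1.78-fold higher (adjusted p = 0.000400 and 0.00289), and CDKN1C was 1.34-fold higher. CDKN1B, a CDK inhibitor named here after its values were seen, fell, by 1.25-fold without overlap (limma adjusted p = 0.0274). RBL1, a retinoblastoma relative, was 1.48-fold lower and CCND2 1.47-fold lower, while CCND1, another D-type cyclin, was 1.36-fold higher. E2F1, an activator of replication genes, differed by 0.06 (95% interval -0.12 to 0.24, adjusted p = 0.704), with overlapping groups.

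Among other genes of the replication machinery, those that passed were also lower. Of 34 accessory factors 9 fell, 0 rose and 25 did not pass, against 4.47% of all genes that fell and 4.03% that rose. The median difference over the 34 was -0.15. An unadjusted p below 0.05 (limma) was reached by 17 in either direction, against 4584 of all 19775 genes. DNA2, a nuclease and helicase of lagging-strand processing, was 1.63-fold lower (adjusted p = 0.00893), from 6.94, 6.72 and 6.996 on the untreated arrays and 6.39, 6.06 and 6.10 on the treated arrays. ATAD5, which unloads the clamp, was 1.36-fold, the topoisomerase gene TOP2B 1.29-fold, DSCC1, of an alternative clamp loader, 1.28-fold, and SLBP, which binds histone mRNA, 1.22-fold lower. DTL, which directs the destruction of CDT1, was 1.25-fold lower. Treated values lay all below the untreated in 16 of the 34 and all above in 2, against 16.3% and 12.9% of all genes. POLD4, named here after its values were seen, was 1 of these 2. It differed by 0.52, just outside the threshold (limma adjusted p = 0.0526).

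Of 17 other genes of nucleotide supply 5 fell, 1 rose and 11 did not pass, with a median difference of -0.27. The shares of all genes were 4.47% that fell and 4.03% that rose. NME1, a nucleoside diphosphate kinase, was 1.39-fold lower, the purine synthesis gene GART 1.32-fold, DUT, which removes dUTP, 1.22-fold, and MTHFD1 of folate metabolism 1.22-fold lower. SHMT1, also of folate metabolism, was 1.61-fold lower, but its probe set without shared-sequence suffix differed by 0.13. The 1 rise was RRM2B, the p53-controlled subunit of ribonucleotide reductase, which read 7.38, 7.40 and 7.52 on the untreated arrays and 7.98, 8.03 and 7.93 on the treated arrays and was 1.46-fold higher (adjusted p = 0.00371), opposite to RRM2. A test of the difference between RRM2B and RRM2 was not made. Of 23 checkpoint and repair genes active at the fork 5 fell, 0 rose and 18 did not pass, against the same shares. The median difference over the 23 was -0.23. In this list 17 had an unadjusted p below 0.05 (limma) in either direction, against 4584 of all 19775 genes. The kinase gene WEE1 was 1.36-fold, RAD54L 1.32-fold, the helicase gene BLM 1.34-fold, EXO1 1.33-fold and FANCI 1.31-fold lower. Among the named genes of these 4 lists, MYC, CDKN1A, CDKN2B, RBL1, CCND2, DNA2, NME1, RRM2B and WEE1 passed in all 6 fits without a single array, and the other calls were lost in at least 1 of them.

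Pairs of arrays had a Pearson r of 0.992 to 0.996 across probe sets. The treated cells carried a TGF-β response, in which 4 of 5 known target genes rose and ID1 fell, with SMAD7, a feedback inhibitor of the pathway, 3.17-fold higher (adjusted p = 7.9e-05). Epithelial markers were present, and the mean of 7 of them lay between 9.44 and 9.54 on untreated and between 9.55 and 9.80 on treated arrays. With treatment KRT14 and KRT8 rose and EPCAM fell. PKP1 was low, with a mean of 4.40 over 6 arrays. Of 8 fibroblast markers COL1A1 and FAP rose, from untreated means of 7.80 and 7.21, and 0 fell. The list means were 4.74 to 4.91 on untreated and 5.16 to 5.22 on treated arrays. LUM, PDGFRA and COL1A2 lay below the array median. Of 6 immune markers 0 passed and 2 had an unadjusted p below 0.05 (limma, list means 4.09 to 4.16 and 4.10 to 4.31, with PTPRC, CD14 and CD163 below the array median). Of 5 endothelial markers CDH5 fell and KDR rose, both below the array median, with list means of 4.23 to 4.25 and 4.23 to 4.30. The part of other cells in the differences of the replication genes was not tested.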

How the data were processed

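RNA of 6 samples (3 untreated, 3 given TGF-β1) was read on Affymetrix arrays. The authors deposited 1 value per probe set and array, made with RMA in Affymetrix Expression Console per the submitters' processing notes. RMA corrects background, equalises the distributions between arrays and summarises probes, so small shared shifts can be removed. The deposited values were taken as log2 from their range, 1.57 to 14.5. No source used here gives versions or a genome build. Array data carry no read depth, and the 3 arrays per group limit the precision (median half-width of the 95% intervals 0.171, log2).

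Control probe sets (62) were left out. Of the others, 41091 carried 1 gene symbol and 1801 several, which were not used. The brightest probe set by mean stood for a gene. Groups were compared with lmFit and eBayes of limma 3.58.1 in R 4.3.3, with p-values adjusted over 19775 genes by Benjamini-Hochberg. The fit was tested on data simulated with the spread of each gene. It recovered 19% of 1.3-fold changes and 86% of 2-fold changes. The simulation changed far fewer genes than were called here, and drew them from genes of all levels. These percentages are therefore no measure of sensitivity for the replication genes. Genes that did not pass may still have changed by small amounts. Members and lists were chosen with earlier results of these data known, and the motif search and the promoters shown were chosen after values had been seen. Per-array values are given for genes that passed, for MCM10 and for up to 3 further genes per role with the smallest p. In the other lists, up to 6 genes that passed are named by smallest p, with MYC, E2F1, CCND1, CDKN1A and CDKN2B. Some listed genes are not reported here. Alternatives covered normalisation, dim genes, the choice of probe sets, the variance model, array weights, the replicate block, the 3' over 5' signal, a minimum fold and left-out arrays.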

Additional observations from a re-analysis of the deposited data

How the results depend on the processing

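Among the DNA replication genes 0 rose under all 19 alternatives, and the 11 genes that fell kept a difference below 0 in all 207 of their alternative values. The share of all tested genes that fell, 4.47% in the main fit, moved with the number of replication genes that fell. That number was 18 among genes above the array median (share 9.95%) and 19 among genes at 5 or more on 3 arrays (13.3%). Without shared-sequence probe sets 7 of 41 genes fell (3.0004%), and with all probe sets fitted 6 (2.31% of probe sets). A trended robust variance gave 26 (7.72%) and the 3' over 5' covariate 17 (5.65%). Only 1 fell without both arrays numbered 1 (1.37%), and 1 with a fold of 1.2 as the minimum (0.612%). Leaving out single arrays gave 2 to 7 (1.603% to 3.191%). Replicate numbers were not taken as pairs, since the labels name no shared source and the deviations of equal numbers correlated at 0.18, 0.04 and 0.08, although 4 of 6 arrays correlated best with their own number. With the replicate block 7 genes fell, against 3.31% of all genes. ORC1 was gained (limma adjusted p = 0.0416), and DBF4, POLE2, RFC5, FEN1 and RRM2 were lost (0.0547 to 0.0637). The median difference was -0.16 with the mean of probe sets and -0.23 to -0.18 with single arrays left out. The count over all genes called in either direction, 1680, became 2531 among genes at 5 or more and 995 without shared-sequence probe sets. It became 2629 with the trended variance, 628 without both arrays numbered 1, 327 with the minimum fold and 766 to 1319 with single arrays left out. Over the 4 other lists, in a count added after seeing the data, 27 fell, against 4.47% of all genes. The number was 15 without shared-sequence probe sets, 17 with all probe sets fitted and 43 with the trended variance. It was 7 without both arrays numbered 1, 1 with the minimum fold and 7 to 17 with single arrays left out. The shares of all genes that fell in these fits are those given above. In the same lists 6 rose, against 4.03% of all genes. The number was 10 with the trended variance, 2 with the minimum fold and 3 to 7 with single arrays left out. In those fits 13.3%, 1.65% and 3.87% to 6.67% of all genes changed in either direction. The sign turned in 8 replication genes, none of which passed. Without both arrays numbered 1 the difference was -0.052 in ORC3, 0.0011 in POLA2, 0.048 in POLD1 and 0.083 in POLD2. With array weights it was -0.00968 in ORC3 and 0.000276 in POLD2, with repeated quantile normalisation 0.019 in POLA2 and 0.010 in POLD1, and with the covariate 0.0053 in POLA2. Without shared-sequence probe sets it was 0.00072 in MCM4, 0.031 in CHAF1A, 0.12 in TIMELESS and 0.13 in SHMT1 of the other lists, and with the mean of probe sets 0.00095 in TIMELESS. With single arrays left out the range was -0.030 to 0.034 in ORC3, -0.021 to 0.018 in POLA2, -0.093 to 0.038 in POLD1, -0.080 to 0.031 in POLD2 and -0.082 to 0.019 in POLE. With the mean of probe sets CDKN2B no longer passed (limma adjusted p = 0.0628). The causes were not tested, other than that fewer arrays or fewer genes enter some of these fits. With 3 arrays per group, differences smaller than about 0.17 (log2) lie within the typical 95% interval.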
